A study of Mus musculus with 6 samples.

Results

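The proteins of the mitochondrial ribosome are encoded in the nucleus, and their genes carry the symbols Mrpl (large subunit) and Mrps (small subunit) followed by a number. The family was chosen with earlier results of these data known. Within it, every protein-coding gene of the count table with such a symbol was taken, whatever its values. This gave 78 genes, 49 Mrpl and 29 Mrps, of 51911 genes in the table. The measurement was bulk RNA-seq of total RNA from the gastrocnemius, a fast calf muscle, of male mice. One group was HSA-PGC-1a3 transgenic (3 libraries) and the other wild type (3 libraries). HSA is the human skeletal actin promoter, which drives expression in skeletal muscle fibres, and PGC-1a3 is an isoform of the transcriptional coactivator encoded by Ppargc1a. Age, strain background and the number of transgenic lines were not given in the sources used here. Nothing in the labels says whether each library came from its own animal, so p-values measure the spread between these libraries.

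The mitochondrial ribosome makes the few proteins encoded in mitochondrial DNA, all of them membrane subunits of the respiratory chain and ATP synthase. Its small subunit binds the messenger RNA and decodes it, and its large subunit joins the amino acids and passes the chain out of an exit tunnel at the inner membrane. About its bacterial core, made of homologues of bacterial ribosomal proteins, lies a layer of proteins that only mitochondrial ribosomes have. PGC-1a isoforms are studied in muscle chiefly as regulators of mitochondrial content, and the factors NRF1, GABP (an ETS factor), YY1 and ERR are known partners or mediators of that control.

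Promoters were available for 69 of the 78 genes (RefSeq, GRCm38.p6, 250 bases before to 50 bases after the start). The 7 stretches printed here, each the 80 bases before the RefSeq start, are shown because genes that hold the same motif did not share one call. In the GENCODE annotation, 24 bases of the Mrpl12 stretch, 18 of Mrpl9 and 3 of Mrpl22 lie in exons, and 0 of the others. Capitals mark the bases that match a searched motif on either strand. The first 4 hold the NRF1 core GCGCANGCG and the last 3 the ETS/GABP motif CCGGAAGT. Mrpl12 (chr11:120484557-120484636, plus strand) and Mrpl9 (chr3:94443256-94443335, plus strand) were lower in transgenic muscle. Mrpl22 (chr11:58171584-58171663, plus strand) and Mrps22 (chr9:98601680-98601759, minus strand) did not pass the test. Mrpl45 (chr11:97315636-97315715, plus strand), Mrpl43 (chr19:45006443-45006522, minus strand) and Mrps27 (chr13:99344706-99344785, plus strand) were higher.
Mrpl12: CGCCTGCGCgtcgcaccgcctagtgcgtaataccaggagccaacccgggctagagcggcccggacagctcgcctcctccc
Mrpl9: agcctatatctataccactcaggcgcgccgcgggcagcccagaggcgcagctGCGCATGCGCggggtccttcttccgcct
Mrpl22: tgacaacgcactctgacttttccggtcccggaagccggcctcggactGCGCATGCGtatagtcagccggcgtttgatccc
Mrpl45: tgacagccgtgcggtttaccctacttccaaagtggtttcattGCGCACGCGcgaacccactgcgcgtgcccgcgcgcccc
Mrps22: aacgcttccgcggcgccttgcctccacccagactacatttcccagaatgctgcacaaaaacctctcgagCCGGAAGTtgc
Mrpl43: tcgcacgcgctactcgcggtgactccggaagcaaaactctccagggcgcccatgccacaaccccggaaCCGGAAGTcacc
Mrps27: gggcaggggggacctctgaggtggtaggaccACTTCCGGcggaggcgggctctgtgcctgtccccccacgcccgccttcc

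Over the whole promoter window, the NRF1 core was found in 16 of 69 promoters of these genes (23.2%), against 7.0% of all promoters in the RefSeq table and 14.2% of those of genes tested here. ETS/GABP letters were present in 12 (17.4%), against 4.3% and 8.4%. The YY1 motif AAGATGGCG was present in 8 (11.6%), against 1.6% and 3.3%. In 6 of these 8 it read in the gene's own direction, with its first base 11 to 36 bases after the start. The ERR motif TCAAGGTCA was in 0 of 69 windows and in 0.5% of all promoters, which says only that these letters are not there. The NRF1 core was in 6 of 32 promoters of genes that rose, 4 of 16 that fell and 6 of 21 that did not pass. For ETS/GABP the counts were 4, 2 and 6, and for YY1 they were 5, 3 and 0. A match of letters is a description of the promoter and not a measurement of binding.

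The libraries held 25532146 to 40846872 counts. Ppargc1a was counted 94358, 73513 and 120862 times in the transgenic libraries and 1179, 1809 and 1200 times in the wild-type ones, so it was far higher in every library labelled transgenic. TMM factors (edgeR's scaling to a common centre of all genes) were 1.146 to 1.148 for the transgenic group and 0.851 to 0.885 for wild type. Summed CPM (counts relative to library size, scaled by TMM) of 5 myofibre markers were 5.68e+04 to 6.21e+04 in transgenic and 1.33e+05 to 1.42e+05 in wild-type muscle, and 5 of 5 were lower. Endothelial markers (259 to 276 against 323 to 345) and mural markers (565 to 633 against 895 to 932) were lower in 5 of 5 genes each, and satellite cell markers (24.8 to 27.2 against 17.4 to 20.7) were higher in 3 of 4. Erythroid markers were lower in 3 of 5 (47.1 to 51 against 57 to 71.6 CPM), fibroblast markers in 1 of 5, and 1 of 5 macrophage markers was higher. No adipocyte or Schwann cell marker passed the test, and of 4 B cell markers the 1 tested was lower (list sum 3.88 to 4.61 against 29.6 to 121). No marker had a count of 0 over the 6 libraries. The part of these shifts in the results that follow was not tested, and in bulk tissue fewer cells of a type and less RNA per cell cannot be told apart.

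The mitochondrial ribosome genes did not move as a block. All 78 passed the filter on low counts, with 55 to 4899 counts per gene and library. By edgeR's quasi-likelihood F test, with Benjamini-Hochberg adjustment over 16593 genes and a threshold of 0.05, 36 were higher in transgenic muscle, 20 were lower and 22 did not pass. The shares of 46.2% higher and 25.6% lower stood beside 25.5% higher and 25.2% lower over all genes tested. In either direction 71.8% of the 78 were called, against 50.7% of all genes. CPM of the 3 transgenic and the 3 wild-type libraries did not overlap for 61 of the 78 (78.2%), against a background of 59.6%. The 78 genes had a median wild-type CPM of 37.0, against 10.2 for all genes tested and 4.7 for those not called. The part of expression level in these shares was not tested. The median log2 fold change was 0.087, against -0.016 for all genes tested. Changes were modest: 12 of the higher and 6 of the lower genes passed 1.5-fold, and the most extreme in each direction changed 1.81-fold. Over all genes tested, called or not, changes near 1.5-fold stood at percentile 85 (log2 fold change 0.58) and percentile 14 (-0.587). The share of all genes both called and past 1.5-fold was not computed.

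**Figure D1:**
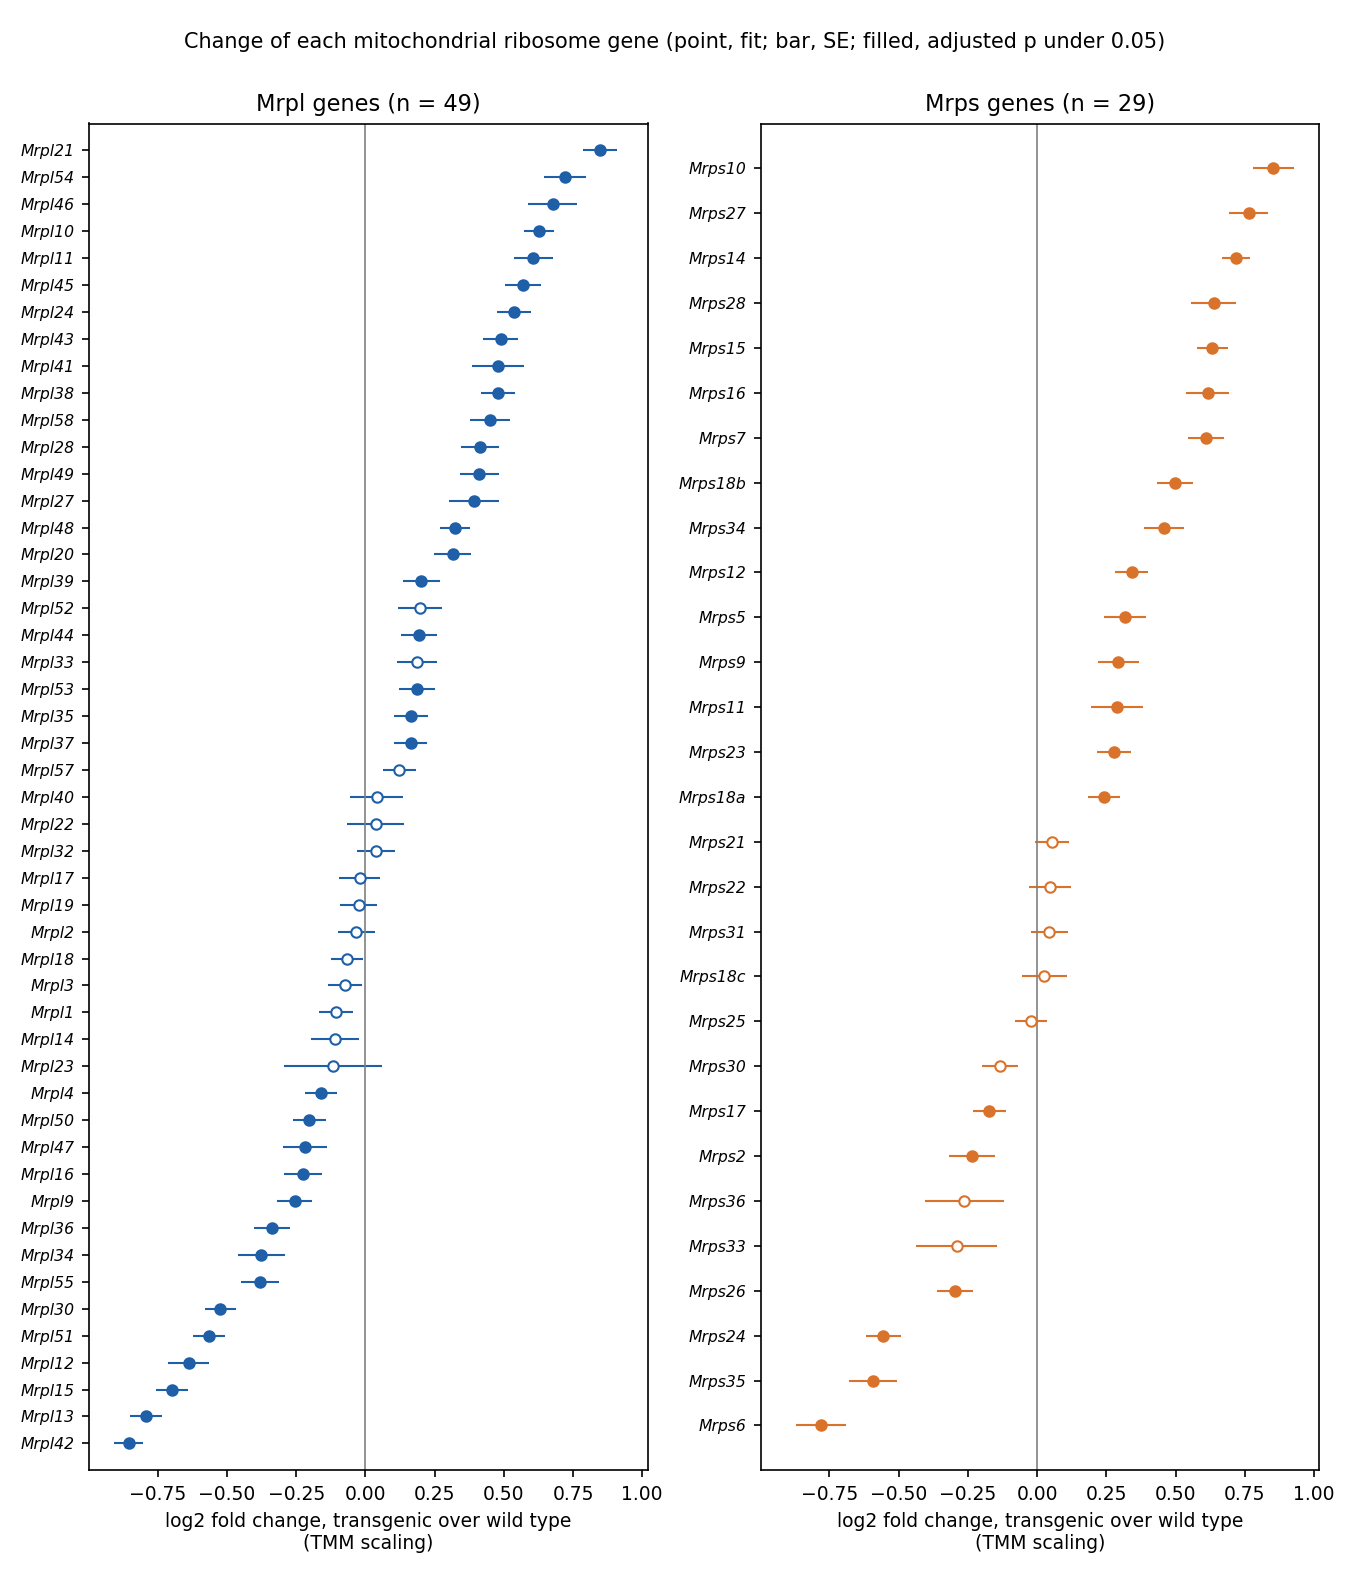
Log2 fold change of transgenic over wild-type muscle (x axis, no unit) for each of the 49 Mrpl genes (left) and 29 Mrps genes (right), ordered by change; points are fitted values, bars are standard errors and filled points have an adjusted p under 0.05. Filled points lie on both sides of 0 in each panel, with 21 higher and 14 lower Mrpl genes and 15 higher and 6 lower Mrps genes.

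The small subunit leaned further upward than the large one. Of 29 Mrps genes 15 were higher (51.7%), 6 lower (20.7%) and 8 not called, with a median log2 fold change of 0.242. Of 49 Mrpl genes 21 were higher (42.9%), 14 lower (28.6%) and 14 not called, with a median of 0.04. The ratio of summed Mrpl to summed Mrps counts, which no scaling between libraries can alter, was 1.815, 1.825 and 1.784 in transgenic libraries. In wild-type libraries it was 2.137, 2.198 and 2.179. The group means were 1.81 ± 0.0215 and 2.17 ± 0.0314 (SD, n = 3), a difference of -0.363 with no overlap, many times the spread within either group. With counts divided by exon length the ratio was 1.81 against 2.12.

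Summed over all 78 genes, expression was 3354 ± 70.9 CPM in transgenic muscle and 3117 ± 145 CPM in wild-type muscle (SD, n = 3), and the groups did not overlap. The Mrps sum was 1195 ± 34.1 against 983 ± 36.1 CPM, also without overlap. For the Mrpl genes the sum was 2160 ± 37.1 against 2134 ± 109 CPM, and here the groups overlapped. As an unscaled share, the 78 genes took 0.384% ± 0.00798 of all counts in transgenic and 0.271% ± 0.00844 in wild-type libraries.

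**Figure D2:**
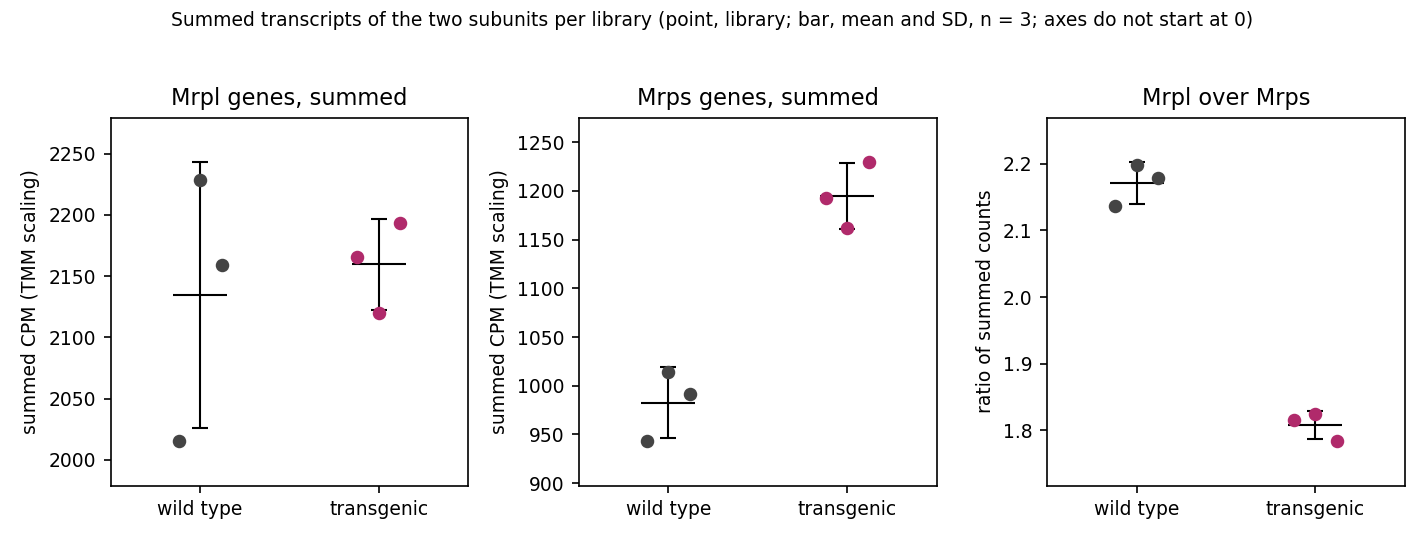
Summed CPM of the Mrpl genes (left) and Mrps genes (middle) and the ratio of their summed counts (right, no unit) in each library; points are libraries, bars the mean and SD of 3, and the y axes do not start at 0. The Mrpl sums overlap between genotypes, the Mrps sums do not, and the ratio runs from 1.784 to 1.825 in transgenic libraries and from 2.137 to 2.198 in wild-type ones.

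The size and balance of the family's change depended on the scaling. With library totals alone, the median of all genes moved from -0.016 to 0.38, 59 of the 78 were higher (all genes 52.3%) and 7 lower (all genes 8.73%), with a median of 0.484. With libraries scaled to the summed counts of the 78 genes themselves, 29 were higher (all genes 19.6%) and 27 lower (all genes 31.4%), with a median of -0.018. Under all 5 scalings tried, 29 genes were higher (13 Mrps, 16 Mrpl) and 7 were lower (2 Mrps, 5 Mrpl). The share of all genes called alike under all 5 was not computed. The Mrps median lay above the Mrpl median by 0.202 in the main fit. A change of scaling shifts all genes nearly alike, so it could hardly alter this gap and is no check on it. Under the other scalings, tools and filters the gap was 0.199 to 0.202. Without transgenic replicate 1, 2 or 3 it was 0.224, 0.127 and 0.116. Without wild-type replicate 1, 2 or 3 it was 0.18, 0.125 and 0.127. The Mrps median was 0.638 with library totals and 0.136 with the family's own sum, and the Mrpl median was 0.437 and -0.063, so that the sign of the Mrpl median turned and that of the Mrps median did not. Leaving out single libraries gave Mrpl medians of 0.031 to 0.15. Of the 20 genes that were lower, 7 were also lower with library totals alone: Mrpl42, Mrpl13, Mrps6, Mrpl15, Mrpl12, Mrpl51 and Mrps24. A further 2 stayed below 0 without passing, and 11 were above 0, 4 of them called higher. Of the 36 that were higher, all 36 were called higher with library totals and 29 with the family's own sum. Calls that were lost on removal of at least 1 library were those of Mrpl4, Mrpl16, Mrpl35, Mrpl37, Mrpl39, Mrpl44, Mrpl47, Mrpl50, Mrpl53, Mrps2, Mrps11 and Mrps17.

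Among homologues of bacterial small-subunit proteins, 10 of 16 rose (62.5%), 4 fell (25%) and 2 did not pass (median 0.306). Over all genes tested, 25.5% were higher and 25.2% lower. Mrps10 (chr17:47368887-47381417, plus strand), a protein of the small-subunit head, measured 40.8, 38.5 and 41.8 CPM in the 3 transgenic libraries and 20.2, 23.6 and 23.1 CPM in the wild-type ones. It rose by 0.85 on the log2 scale (SE 0.07, adjusted p = 4.35e-06), and every transgenic library lay far above every wild-type one. Mrps14 (chr1:160195215-160202170, plus strand), also of the head, was at 80.5, 79.1 and 82.3 against 49.1, 49.8 and 48.1 CPM. With libraries of each group within a few CPM of each other it rose by 0.72 on the log2 scale (SE 0.05, adjusted p = 1.18e-06). Mrps15 (chr4:126046925-126055532, plus strand), whose bacterial homologue binds ribosomal RNA early in assembly, read 78.3, 78.2 and 83.8 against 50.6, 52.9 and 51.3 CPM and rose by 0.63 on the log2 scale (SE 0.06, adjusted p = 4.64e-06).

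Mrps28, the counterpart of bacterial S1, stood at 66.9, 61.8 and 69.7 against 40.2, 47.7 and 39.4 CPM, with 1 wild-type library above the other 2 but below all transgenic ones. It rose by 0.64 on the log2 scale (SE 0.08, adjusted p = 6.68e-05). Mrps16 was at 35.8, 30.7 and 33.7 against 20.4, 22.5 and 22.5 CPM and rose by 0.62 on the log2 scale (SE 0.08, adjusted p = 5.99e-05). Mrps7, which sits in the head, rose as well (log2 fold change 0.61, SE 0.07, adjusted p = 2.05e-05), and so did Mrps12, the homologue of the decoding-centre protein S12 (log2 fold change 0.34, SE 0.06, adjusted p = 0.000633). Mrps5 (0.32), Mrps9 (0.29) and Mrps11 (0.29) completed the rises.

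Falls in the same class were led by Mrps6 (chr16:92058270-92112227, plus strand), a protein of the platform. Its values were 8.78, 8.8 and 7.74 CPM in transgenic libraries and 15.1, 14.7 and 13.7 CPM in wild-type ones, with a wide gap between the groups, and it fell by 0.78 on the log2 scale (SE 0.09, adjusted p = 3.37e-05). Mrps24, the counterpart of the protein S3 that lines the messenger RNA entry, was at 38.6, 37.7 and 37 against 51.4, 58.1 and 56.9 CPM and fell by 0.56 on the log2 scale (SE 0.06, adjusted p = 2.95e-05). Mrps17 and Mrps2 made up the 4, with log2 fold changes of -0.17 and -0.24, which turned to 0.22 and 0.16 with library totals alone. Mrps21, among the most abundant of the family per kilobase of exon, read 50.6, 48.5 and 51.2 against 45.4, 51.1 and 48.3 CPM. Its groups overlapped (log2 fold change 0.05, SE 0.06, adjusted p = 0.508).

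Of the 10 mitochondria-specific small-subunit proteins, 4 rose (40%), 2 fell (20%) and 4 did not pass. All genes tested stood at 25.5% higher and 25.2% lower. The median of the 10 was 0.045, and -0.061 with scaling to the family's own sum. Mrps27 (chr13:99344786-99415562, plus strand), an RNA-binding protein with pentatricopeptide repeats, measured 56.7, 53.5 and 63.2 CPM in transgenic libraries and 35.2, 33.5 and 33.5 CPM in wild-type ones. Transgenic libraries varied more than wild-type ones, yet all lay above the tight wild-type group, and the gene rose by 0.76 on the log2 scale (SE 0.07, adjusted p = 6.41e-06). Of its exonic bases 24.2% overlap another annotated gene, and a fragment in such bases was counted for both. Mrps35 (chr6:147042764-147073991, plus strand) was at 13.6, 12.3 and 11.4 against 18.5, 18.2 and 19.4 CPM and fell by 0.59 on the log2 scale (SE 0.09, adjusted p = 0.000164), but did not pass with library totals alone (-0.2, adjusted p = 0.0727). Mrps34 (0.46) and Mrps23 (0.28) rose, and Mrps26 was the other fall (-0.30; 0.1 with library totals alone). Mrps33 was low in every library (3.12, 2.8 and 3.3 against 3.42, 3.77 and 4.1 CPM), and its lower transgenic values did not pass (log2 fold change -0.29, SE 0.15, adjusted p = 0.123).

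**Figure D3:**
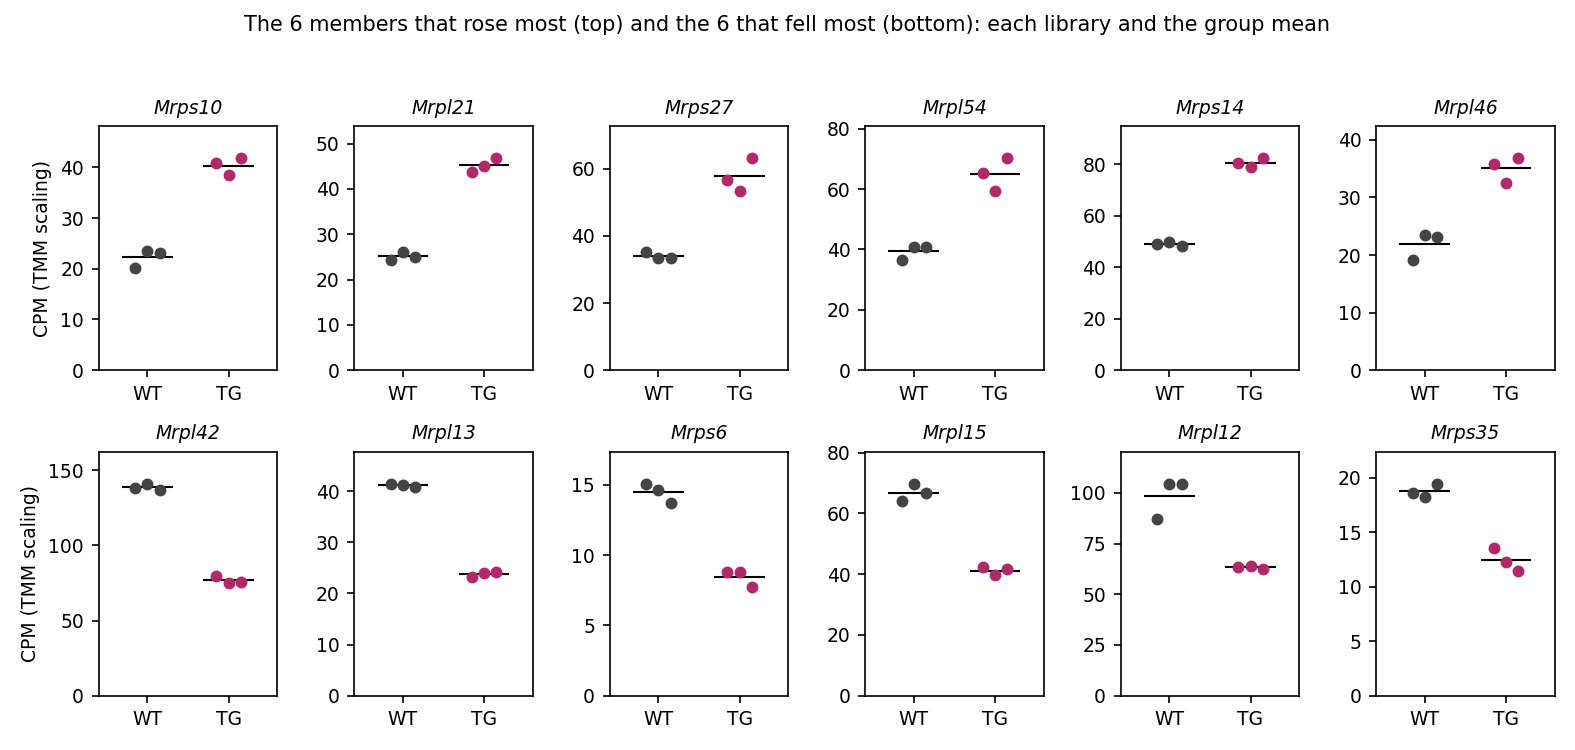
CPM (y axis, from 0) of the 6 genes that rose most (top row) and the 6 that fell most (bottom row) in each wild-type (WT) and transgenic (TG) library; points are libraries and lines the group mean of 3. In all 12 panels the groups stand apart, for example 38.5 to 41.8 against 20.2 to 23.6 CPM for Mrps10.

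In the large subunit the bacterial core and the added layer were counted apart. Among the 30 homologues of bacterial proteins 8 rose (26.7%), 11 fell (36.7%) and 11 did not pass (median -0.07). Among the 19 mitochondria-specific proteins 13 rose (68.4%), 3 fell (15.8%) and 3 did not pass (median 0.203). Beside 25.5% higher and 25.2% lower of all genes tested, the rising share of the bacterial homologues was near the background. The difference between the classes was not tested. With library totals alone the medians were 0.327 and 0.599, and with scaling to the family's own sum -0.175 and 0.097. In the bacterial class, Mrpl21 (chr19:3282901-3292837, plus strand) had the largest rise: 43.8, 45.2 and 46.8 CPM in transgenic libraries and 24.3, 26.1 and 24.95 CPM in wild-type ones. It rose by 0.85 on the log2 scale (SE 0.06, adjusted p = 1.17e-06), with tight groups far apart.

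Mrpl13 (chr15:55534094-55557748, minus strand), whose bacterial homologue also joins early in assembly, was at 23.1, 24.1 and 24.1 against 41.5, 41.3 and 40.9 CPM and fell by 0.79 on the log2 scale (SE 0.06, adjusted p = 1.32e-06). Mrpl15 (chr1:4773206-4785739, minus strand), a protein of the bacterial core, measured 42.2, 39.6 and 41.7 against 63.9, 69.7 and 66.8 CPM and fell by 0.70 on the log2 scale (SE 0.06, adjusted p = 3.28e-06). For Mrpl30 the values were 53.7, 54.1 and 57.2 against 76.4, 81.1 and 79.7 CPM, and it fell by 0.52 on the log2 scale (SE 0.06, adjusted p = 1.78e-05); with library totals alone it did not pass (-0.13, adjusted p = 0.051). In each of these 3 genes all transgenic libraries lay below all wild-type ones. Mrpl2, which lies near the catalytic centre, read 74.6, 77.7 and 77.8 against 71.2, 84.5 and 79.4 CPM, with overlapping groups (log2 fold change -0.03, SE 0.07, adjusted p = 0.713). Mrpl28 (0.41) and Mrpl20 (0.32) were among the further rises. Mrpl34 (-0.38), Mrpl36 (-0.34), Mrpl9 (-0.26), Mrpl16 (-0.23) and Mrpl4 (-0.16) were further falls, each of which stood above 0 with library totals alone (0.02 to 0.24).

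Mitochondria-specific proteins of the large subunit held the single largest fall of the family. Mrpl42 (chr10:95480805-95501940, minus strand) measured 79.4, 75.3 and 75.4 CPM in transgenic libraries and 138, 141 and 137 CPM in wild-type ones, the highest wild-type mean CPM of the 78. It fell by 0.86 on the log2 scale (SE 0.05, adjusted p = 3.34e-07) and shares no exonic base with another gene. Mrpl51, at 45.8, 45.8 and 44.6 against 63.9, 68.1 and 69.5 CPM, fell by 0.56 on the log2 scale (SE 0.06, adjusted p = 1.13e-05). Mrpl50 was the remaining fall (-0.20; 0.19 with library totals alone). Rises in this layer beyond those described with their regions included Mrpl43 (0.49), Mrpl41 (0.48) and Mrpl49 (0.41).

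The stalk recruits translation factors to the large subunit. Of the 5 stalk genes 4 rose and 1 fell (median 0.607), beside 25.5% higher and 25.2% lower over all genes tested. Mrpl12 (chr11:120484613-120489065, plus strand) encodes the multi-copy stalk protein itself. It read 63.7, 63.9 and 62.7 CPM in transgenic libraries and 87.1, 105 and 104 CPM in wild-type ones; 1 wild-type library was lower than the other 2 yet above every transgenic one. It fell by 0.64 on the log2 scale (SE 0.07, adjusted p = 3.04e-05). Mrpl10 (chr11:97041560-97049213, plus strand), which anchors Mrpl12 to the ribosome, went the other way, at 57.97, 57.5 and 59.7 against 38.1, 38.1 and 37.2 CPM, and rose by 0.63 on the log2 scale (SE 0.05, adjusted p = 3.86e-06).

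Mrpl11, at the stalk base, was at 58.7, 53.4 and 61.9 against 36.8, 40.6 and 36.7 CPM and also rose (log2 fold change 0.61, SE 0.07, adjusted p = 3.74e-05). Mrpl54 (chr10:81264713-81266934, minus strand), a mitochondria-specific neighbour of the stalk, measured 65.3, 59.2 and 70.2 against 36.6, 40.7 and 40.8 CPM and rose by 0.72 on the log2 scale (SE 0.07, adjusted p = 1.51e-05). Mrpl53 rose little (log2 fold change 0.19, SE 0.07, adjusted p = 0.0341) and did not pass with scaling to the family's own sum (0.08, adjusted p = 0.252), nor without transgenic replicate 3 (0.17, adjusted p = 0.0706) or wild-type replicate 1 (0.12, adjusted p = 0.137). Of its exonic bases, 88.0% overlap another annotated gene, whose fragments cannot be told apart from its own where they overlap. All 3 transgenic libraries lay below every wild-type library for Mrpl12 and above every wild-type library for Mrpl10.

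The central protuberance is where the large subunit meets the small one and the transfer RNAs. Here 5 of 8 genes rose (62.5%), 1 fell (12.5%) and 2 did not pass (median 0.358). The shares over all genes tested were 25.5% higher and 25.2% lower. Mrpl46 was at 35.9, 32.4 and 36.8 against 19.1, 23.4 and 23.2 CPM and rose by 0.68 on the log2 scale (SE 0.09, adjusted p = 8.49e-05); 12.2% of its exonic bases are shared with Mrps11. Mrpl38 read 65.3, 61.5 and 67.3 against 43.7, 47.7 and 47.9 CPM and rose by 0.48 on the log2 scale (SE 0.06, adjusted p = 7.62e-05). Mrpl58, also known as ICT1, is a peptidyl-tRNA hydrolase that frees stalled ribosomes and is built into this region, and it rose too (log2 fold change 0.45, SE 0.07, adjusted p = 0.000332). The one fall was Mrpl55, at 26.6, 26.5 and 28.1 against 32.4, 37.2 and 36.05 CPM (log2 fold change -0.38, SE 0.07, adjusted p = 0.000901); with library totals alone it stood at 0.02.

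Around the polypeptide exit, 2 of 6 genes rose (33.3%), 1 fell (16.7%) and 3 did not pass. These shares lay near the 25.5% higher and 25.2% lower of all genes tested. The median of the 6 was 0.009, and -0.094 with scaling to the family's own sum. Mrpl45 (chr11:97315716-97329920, plus strand), which ties the ribosome to the inner membrane, measured 76.98, 75.96 and 78.5 CPM in transgenic libraries and 47.2, 53.6 and 55.2 CPM in wild-type ones. It rose by 0.57 on the log2 scale (SE 0.07, adjusted p = 3.36e-05), with every transgenic library well above every wild-type one. Mrpl24, a tunnel-exit protein, was at 55.9, 52.6 and 55.3 against 35.6, 39.8 and 37.4 CPM and rose by 0.54 on the log2 scale (SE 0.06, adjusted p = 3.33e-05); 26.3% of its exonic bases are shared with other genes. Mrpl47 was the fall (log2 fold change -0.22, SE 0.08, adjusted p = 0.0399, and 0.18 with library totals alone). It was the only called gene of the 78 whose groups overlapped in CPM. Of its exonic bases 24.2% are shared, most of these with Ndufb5, which was lower (log2 fold change -0.6). The part of shared fragments in the fall of Mrpl47 was not tested. Mrpl23 had the lowest level, 2.7, 2.5 and 2.17 against 2.38, 3.08 and 2.45 CPM (log2 fold change -0.12, SE 0.18, adjusted p = 0.609), and a processed pseudogene of it was counted separately with 83 counts in all 6 libraries.

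Vertebrates keep 3 copies of the protein S18, which occupy different places in the ribosome. Of the 3 genes 2 rose, where 25.5% of all genes tested were higher. Mrps18b, a small-subunit protein, was at 26.4, 25.7 and 27.4 against 19.1, 18.8 and 18.4 CPM and rose by 0.50 on the log2 scale (SE 0.07, adjusted p = 8.94e-05); 30.5% of its exonic bases overlap another gene. Mrps18a, which despite its name lies in the large subunit, read 62.6, 63.3 and 66.7 against 52.4, 53.4 and 57.1 CPM and rose by 0.24 on the log2 scale (SE 0.06, adjusted p = 0.00485). Mrps18c, the copy at the site of the bacterial protein, had 17.8, 18.96 and 18.9 against 17.6, 19.9 and 16.98 CPM, with overlapping groups (log2 fold change 0.03, SE 0.08, adjusted p = 0.817).

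Symbols and places differ for 2 further genes. Mrps30, also a large-subunit protein, was at 38.96, 36.01 and 38.9 against 41.5, 44.1 and 39.2 CPM and did not pass (log2 fold change -0.13, SE 0.07, adjusted p = 0.114). Mrps36 belongs to the 2-oxoglutarate dehydrogenase complex and is no ribosomal protein, and it too did not pass (log2 fold change -0.26, SE 0.14, adjusted p = 0.147), at 3.85, 3.3 and 4.05 against 4.2, 4.29 and 4.99 CPM. With Mrps18a and Mrps30 counted as large and Mrps36 left out, 14 of 26 small-subunit genes rose and 6 fell (median 0.283). Then 22 of 51 large-subunit genes rose and 14 fell (median 0.04), and the ratio of large to small counts was 2.08 against 2.53.

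Some genes overlap a neighbour, and counting was without strand. Exonic bases shared with another gene occur in 33 of the 78, against 28.2% of protein-coding genes in the table, tested or not. Such bases make up at least 25% of the exons in 7 of the 78. These are Mrpl53, Mrps34 (77.8%), Mrps25 (69.8%), Mrpl19 (36.0%), Mrpl43 (33.4%), Mrps18b and Mrpl24. Among the genes with no shared base, 10 of 27 Mrpl rose and 8 fell (median 0.038), and 10 of 18 Mrps rose and 3 fell (median 0.26).

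Levels within the family were compared per kilobase of annotated exon, since CPM grows with length. In wild-type muscle they ran from 0.540 to 67.0 CPM per kilobase with a median of 13.9, and in transgenic muscle from 0.503 to 84.5 with a median of 16.5. Mrpl2 (66.99 ± 5.75, SD, n = 3), Mrps21 (65.4 ± 3.85) and Mrpl12 (64.4 ± 6.57) were the highest in wild type, closer together than their SDs. In transgenic muscle Mrpl12 was at 41.4 ± 0.4 CPM per kilobase and ranked 12, while Mrps28 went from rank 6 (54.2 ± 5.83) to rank 1 (84.5 ± 5.16). The lowest wild-type levels were those of Mrps33 (2.26), Mrps35 (2.17) and Mrpl23 (0.540). Exon lengths are the union of all annotated transcripts, so a gene with long rarely used exons can be placed too low.

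**Figure D4:**
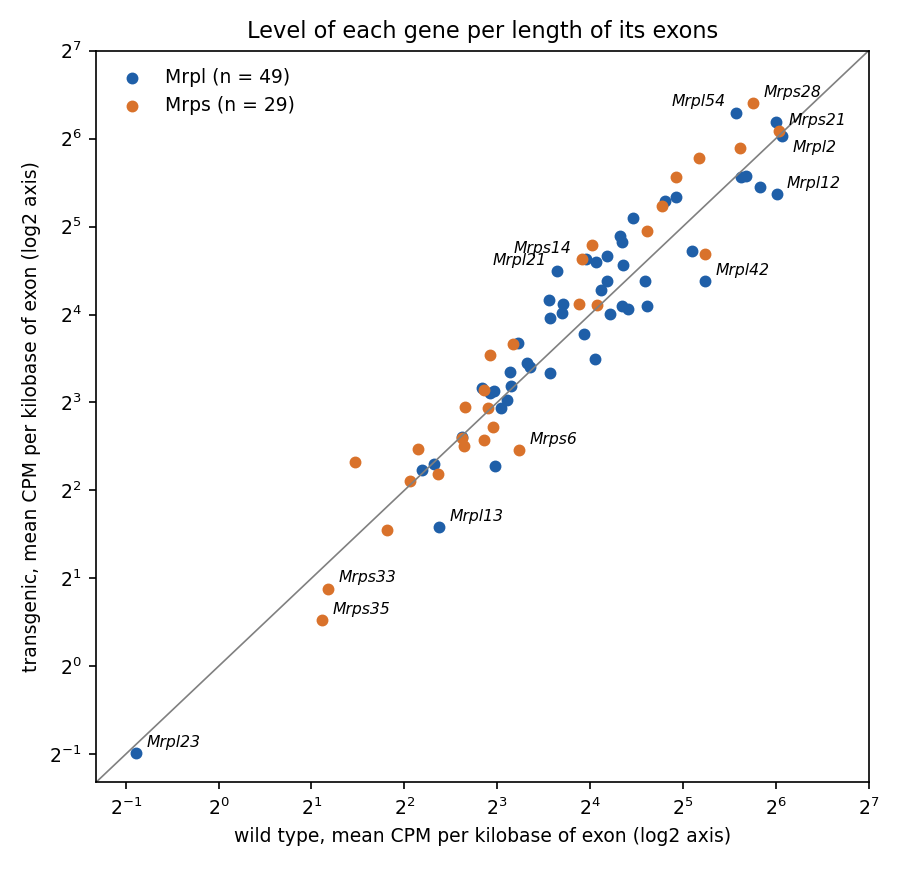
Mean CPM per kilobase of exon in transgenic (y axis) against wild-type muscle (x axis), both log2 axes, for 49 Mrpl (blue) and 29 Mrps (orange) genes; the line marks equal levels. The order is largely kept (Pearson r 0.955 between log2 means over the 78 genes, a description), with Mrps28 and Mrpl54 above the line at the top and Mrpl12, Mrpl42, Mrpl13 and Mrps6 below it.

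The spread of levels across the family was somewhat wider in transgenic muscle. The SD of the log2 levels over the 78 genes was 1.42, against 1.32 in wild type, and the highest level was 168 times the lowest, against 124 times.

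Of 5 further mitochondrial ribosome proteins that carry other names, 3 rose and 1 fell (all genes tested 25.5% and 25.2%). Chchd1 (log2 fold change 0.55, SE 0.05, adjusted p = 1.15e-05) and Aurkaip1 (0.56, SE 0.06, adjusted p = 2.04e-05) of the small subunit rose without overlap between groups. Gadd45gip1 of the large subunit rose less (0.20, SE 0.06, adjusted p = 0.0128), and Ptcd3, a pentatricopeptide protein of the small subunit, fell (-0.16, SE 0.05, adjusted p = 0.0218; 0.23 with library totals alone). Dap3, a GTP-binding small-subunit protein, did not pass (0.14, SE 0.06, adjusted p = 0.0737).

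The ribosomal RNAs of the mitochondrion are copied from mitochondrial DNA and not from the nucleus. The small-subunit RNA mt-Rnr1 was at 1713, 1612 and 1848 CPM in transgenic libraries and 1795, 1220 and 1642 CPM in wild-type ones. The large-subunit RNA mt-Rnr2 was at 4728, 4943 and 5356 against 5118, 3718 and 4514 CPM. Groups overlapped in both, and neither passed (log2 fold change 0.15, SE 0.13, adjusted p = 0.383, and 0.17, SE 0.11, adjusted p = 0.218). With library totals alone both did, at 0.54 (adjusted p = 0.0182) and 0.56 (adjusted p = 0.00418).

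Of the factors that build the mitochondrial ribosome, 10 of 25 were higher and 6 lower (median 0.165). Scaling by library totals put 19 higher and 1 lower (median 0.563). Over all genes tested, 25.5% were higher and 25.2% lower with TMM scaling, and 52.3% and 8.73% with library totals alone (median 0.38). Tfb1m, which methylates the small ribosomal RNA, rose by 0.85 on the log2 scale (SE 0.09, adjusted p = 2.2e-05). Mterf3 (0.69, SE 0.07, adjusted p = 1.11e-05) and Ngrn (0.71, SE 0.07, adjusted p = 1.32e-05), both tied to large-subunit assembly, rose as well. Among 13 translation factors 2 rose and 7 fell (median -0.167), whereas with library totals alone 7 rose and 0 fell (median 0.229). Tufm, the elongation factor that brings transfer RNAs, rose by 0.42 (SE 0.07, adjusted p = 0.000656). Gfm1, the translocase that works at the stalk, fell by 0.39 (SE 0.05, adjusted p = 7.04e-05; 0.01 with library totals alone), and Oxa1l, which inserts new chains into the inner membrane, fell by 0.50 (SE 0.06, adjusted p = 4.71e-05).

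Related gene families were set beside the mitochondrial ribosome. Nuclear-encoded respiratory chain subunits were lower in 56 of 77 genes tested (72.7%) and higher in 2 (2.6%), with a median of -0.327. When libraries were scaled by their totals only, 27 rose and 19 fell (median 0.07), against 59 and 7 of the 78 mitochondrial ribosome genes (median 0.484). Cytosolic ribosomal proteins were higher in 23 of 75 (30.7%) and lower in 5 (6.7%), with a median of 0.104. Scaled by library totals, 58 were higher and 0 lower (median 0.503), and scaled to the summed counts of the 78 genes, 14 were higher and 14 lower (median 0.004). Of all genes tested, 52.3% were higher and 8.73% lower with library totals, and 19.6% and 31.4% with the summed counts of the 78. The differences between families were not tested.

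**Figure D5:**
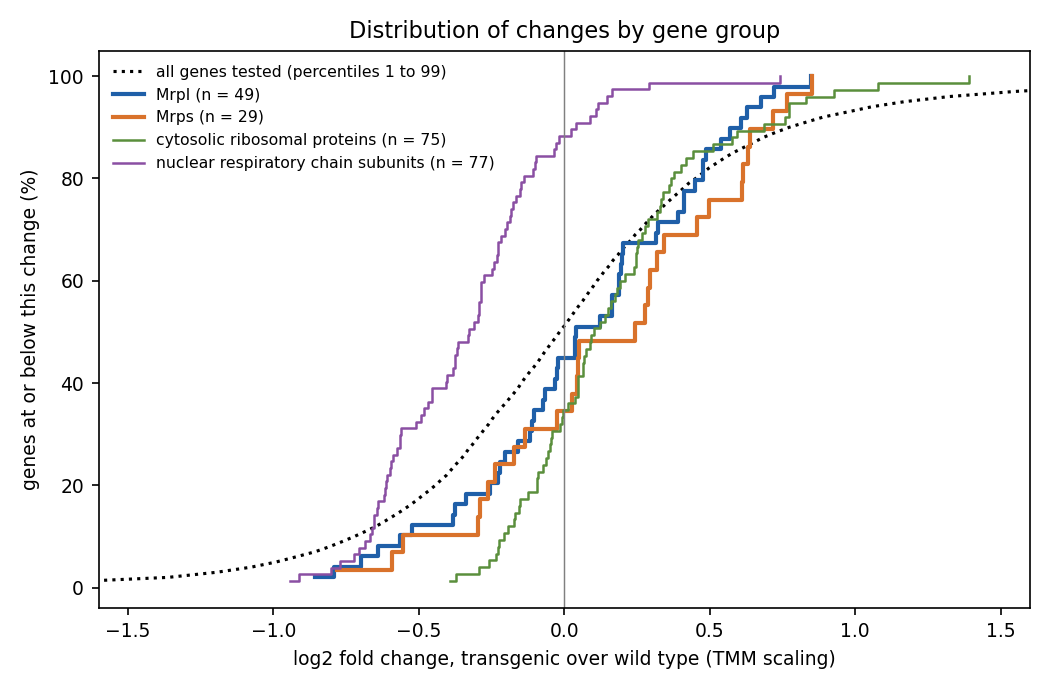
Share of genes (y axis, percent) at or below a given log2 fold change (x axis, transgenic over wild type) for Mrpl, Mrps, cytosolic ribosomal protein and nuclear respiratory chain genes, and for all genes tested (dotted, percentiles 1 to 99). The curve of the respiratory chain genes lies to the left of the Mrpl and Mrps curves over most of its length, with a median of -0.327 against 0.04 and 0.242.

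The authors' deposited table of their own DESeq2 comparison lists 3614 genes, beside 16593 tested here. It has no absolute log2 fold change under 0.585 and no DESeq2 p-value above 0.0499. It holds 19 of the 78 genes, 12 higher and 7 lower, and all 19 had the same sign in the fit reported here. Both comparisons used the same libraries, so the shared sign is no separate evidence. For Mrps10, Mrpl21 and Mrpl42 the authors' deposited table gives log2 fold changes of 0.892, 0.83 and -0.86.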

How the data were processed

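Fragment counts per gene were deposited by the authors for 6 libraries. Reads were aligned with STAR 2.5.0a to GRCm38.p6 and counted with featureCounts 2.0.0, per the submitters' processing notes. Counting was unstranded, per the file headers, and a fragment over several genes counted for each, so genes that overlap share counts; 33 of the 78 genes have such bases. The annotation release is not given in the sources used here. The authors' deposited table of their DESeq2 comparison (its version is not stated) holds log2 fold changes and p-values; its direction, transgenic over wild type, was read from the sign of Ppargc1a.

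Gene names, positions and exon lengths came from GENCODE vM21 (51718 of 51911 IDs matched) and promoters from RefSeq (GRCm38.p6). Counts were fitted with edgeR 4.0.16 (R 4.3.3) by the quasi-likelihood F test with robust dispersion, genotype only, filterByExpr, TMM factors and Benjamini-Hochberg adjustment over 16593 genes (threshold 0.05). The biological coefficient of variation was 10.7%. Standard errors were taken from the F statistic (the absolute log2 fold change over its root). CPM are scaled by TMM. The script was tested on simulated data.

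Alternatives were library totals, upper-quartile factors, scaling to the family's own summed counts, DESeq2 1.42.0, limma-voom (limma 3.58.1), other filters, a replicate block, other placements of 3 genes, leaving out genes with shared exons and leaving out each library. No 2 libraries were copies of each other. Genes named in full were the 10 largest rises and 10 largest falls without overlap between groups, the 3 highest and 3 lowest wild-type levels per length, up to 2 of each role by smallest p, the S18 copies, and up to 3 of each other list; other genes of the 78, and the genes with printed promoters, were chosen once their values had been seen. The genes and lists were chosen with earlier results of these data known. No p-value is given for a list.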

Additional observations from a re-analysis of the deposited data

How the results depend on the processing

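Upper-quartile factors, DESeq2, limma-voom and both other filters moved no count of higher or lower Mrpl or Mrps genes by over 1.5 times, and none of the 32 genes named by rule changed its call under them or on removal of a library. Mrpl2, Mrpl23 and Mrps18c, which did not pass, crossed 0 in some of these (to 0.02, 0.01 and -0.03 at most). With library totals alone, 37 Mrpl genes were higher and 5 lower, 2 Mrps genes were lower, and the medians were 0.437 (Mrpl) and 0.638 (Mrps), since the centre of all genes moved to 0.38; Mrpl55 (0.02), Mrps30 (0.26) and Mrpl2 (0.36) turned from below to above 0, as did Mrps33 (0.11), Mrps36 (0.13) and Mrpl23 (0.28), which did not pass, and Mrps18c (0.42) and Mrps21 (0.45) passed. With libraries scaled to the family's summed counts the medians were -0.063 and 0.136, Mrps18a no longer passed (0.14), and Mrps30 (-0.24), Mrps33 (-0.4) and Mrps36 (-0.37) passed as lower; Mrps18c (-0.08) and Mrps21 (-0.05) crossed 0 without passing. With the 3 misplaced names moved, the Mrps median was 0.283 and the ratio of large to small counts differed by -0.449. By symbol, the ratio per kilobase differed by -0.304. Without genes that share exonic bases, 10 Mrpl genes were higher and 8 lower and 3 Mrps genes were lower, because fewer genes remained (27 and 18). Leaving out each library in turn gave 16 to 23 Mrpl genes higher and 11 to 14 lower, 14 to 15 Mrps genes higher and 4 to 5 lower, medians of 0.031 to 0.15 (Mrpl) and 0.211 to 0.282 (Mrps), and a ratio difference of -0.38 to -0.349. The Mrpl median was over 1.5 times larger when transgenic library 2 (0.15) or 3 (0.108) was left out, or wild-type library 2 (0.099) or 3 (0.087); the cause was not tested. Of 56 called genes, 44 were called in all 6 removals. With a replicate block, 20 Mrpl genes were higher and 12 lower and 15 Mrps genes higher and 5 lower (medians 0.043 and 0.242). Deviations of same-numbered libraries from their group means had correlations of 0.106, -0.05 and -0.14, and not every library correlated best with its own number. With 3 libraries a group this cannot decide whether the numbers pair them. At 3 libraries a group, standard errors of the 78 genes were 0.052 to 0.178, and the genes that did not pass lay between -0.29 and 0.20, a range that also held genes that passed.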

Other observations

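Many of these genes start beside another gene that is read in the opposite direction. Of the 78, 18 (23.1%) had a protein-coding neighbour on the other strand whose start lay within 1000 bp. The share was 6.8% over protein-coding genes in the table, tested or not, and was not computed for tested genes alone. Taken singly, 71.8% of the 78 and 50.7% of all genes tested passed the test, and joint passing was not computed over all gene pairs. Of the 16 neighbours tested, 6 passed together with their mitochondrial ribosome gene. In 3 of these pairs both rose: Mrps12 with Sars2 (log2 fold changes 0.34 and 1.08), Mrpl49 with Fau (0.41 and 0.55) and Mrps34 with Eme2 (0.46 and 0.33). Sars2 is the mitochondrial seryl-tRNA synthetase, and its start lies 172 bp from that of Mrps12. In the other 3 pairs the directions were opposite: Mrpl51 with Ncapd2 (-0.56 and 0.48), Mrpl54 with Apba3 (0.72 and -0.32) and Mrps27 with Ptcd2 (0.76 and -0.34). The pairs were not tested as a group.

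Genes that rose had a median GC content of 52.1% in their longest annotated transcript and a median exon length of 2080 bases. GC content was higher and exon length shorter than in genes that fell (46.3% and 3044 bases) or did not pass (46.9% and 3124 bases). Over all genes tested, the medians were 51.1% and 4075 bases for genes that rose. They were 49.7% and 4297 bases for genes that fell, and 49.7% and 3528 bases for those not called. Across the 78 genes, GC content and log2 fold change had a Pearson r of 0.31 and a Spearman rho of 0.32, against 0.08 and 0.07 across 16546 genes tested; genes are not independent replicates and no p is given. The part of GC content or length in the calls was not tested. The 78 genes lie on 17 chromosomes, 11 of them on chromosome 11.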
